A study of Mus musculus with 7 samples.

Results

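A set of 39 genes of damage signalling and of the main DNA repair pathways was followed in splenic Tregs of aged and young mice. The genes were chosen by symbol for their known roles, and all 39 were found among the 25469 genes of the deposited table and passed the filter on low counts. Magnetic beads were used to isolate CD4+CD25+ cells from the spleen, and their RNA was sequenced from 3 aged mice, which were 18 months old, and from 4 young mice, which the sample labels give as 8 weeks old and the study's methods as slightly older. All were wild type (WT), untreated male C57BL/6 mice by the labels and the methods. Each library is labelled a biological replicate.

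A cell meets DNA damage in steps. Kinases such as those encoded by Atm and Atr sense breaks and stalled replication forks and signal through Chek1 and Chek2, and separate pathways then mend separate lesions. Broken ends are joined by Ku, the DNA-dependent protein kinase and ligase IV, or are copied from a sister strand by homologous recombination. Altered bases and nicks go to base excision and single-strand break repair, bulky adducts to nucleotide excision repair, copying errors to mismatch repair, and strand crosslinks to the Fanconi anaemia pathway. End joining also completes antigen receptor gene assembly in developing lymphocytes, and homologous recombination genes are used mostly by dividing cells.

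The libraries held 10734234 to 13649310 reads on genes, with the 3 aged libraries the shallowest. All 7 libraries held reads of Foxp3, Il2ra and Cd4, the defining genes of Tregs. Of 7 Treg markers Lrrc32 was lower in aged Tregs (log2FC -1.02, edgeR FDR 0.0083), and Il2ra had a log2FC of -0.61 without a call (FDR 0.05885), with a summed level of 2688 to 3221 CPM (counts scaled to the effective library size by the TMM method) in aged and 2058 to 3378 CPM in young Tregs. Of 6 monocyte or macrophage markers 3 were lower (Csf1r, Adgre1 and Vcam1, log2FC -1.12, -0.70 and -0.56), with a summed level of 330.5 to 507 CPM against 455 to 529 CPM. The naive T cell genes Ccr7, Lef1 and Tcf7 were lower in aged Tregs (log2FC -0.77, -1.13 and -0.43, edgeR FDR 0.0213, 0.000617 and 0.0235), and Lef1 was at 47.8 to 54.0 CPM against 104 to 123 CPM in young Tregs. Of 6 effector memory markers 3 were higher (617 to 685 CPM against 438 to 560 CPM in sum). Mitochondrially encoded genes took 5.08% to 10.7% of the aged and 2.63% to 3.23% of the young counts. None of the 20 cell cycle markers was called by edgeR, and their summed level overlapped between the ages (1958 to 2635 CPM in aged and 1770 to 2911 CPM in young Tregs). B cell markers summed to 706.5 to 1418 CPM in aged and 1158 to 1753 CPM in young Tregs, with 0 of 5 called. Plasma cell markers summed to 748 to 1301 against 325 to 1999 CPM, with 1 of 5 higher. The summed levels did not overlap for germinal centre B markers (87.0 to 96.85 against 67.5 to 80.6 CPM, 1 of 5 higher). Nor did they for platelet markers (16.1 to 34.9 against 7.43 to 15.1 CPM, 1 of 3 higher). Of 3 NK markers 1 was lower. In such bulk samples, fewer cells of a type and less RNA per cell cannot be told apart. The part of these shifts in the results on the repair genes was not tested, apart from a fit with the cell cycle markers as a covariate.

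Every repair gene was read at 49 counts or more in every library. Per kilobase of exon, Parp1 was the most abundant of the 39 in both ages, at 36.1 ± 2.11 CPM per kb (SD, n = 4) in young and 23.8 ± 2.22 CPM per kb (SD, n = 3) in aged Tregs. In young Tregs Ercc3 (21.0 ± 1.45 CPM per kb), Msh6 (20.02 ± 0.491 CPM per kb) and Lig1 (18.5 ± 2.05 CPM per kb) came next, and these neighbours lay within their SD of each other. In aged Tregs Lig1 (20.6 ± 4.70 CPM per kb), Msh6 (17.6 ± 1.83 CPM per kb) and Ercc3 (17.0 ± 0.943 CPM per kb) followed Parp1, again within their SD. The lowest levels per kb of exon in both ages were those of the homologous recombination genes Xrcc2 (1.07 ± 0.102 CPM per kb in young, 1.16 ± 0.246 in aged) and Brca2 (1.65 ± 0.447 CPM per kb in young, 1.36 ± 0.273 in aged). In young Tregs the most abundant damage signalling gene was the scaffold gene Mdc1, and that of homologous recombination was Xrcc3. In end joining it was Xrcc5, and in the Fanconi group Fancd2, but per kb of the longest transcript Xrcc6 (17.9 CPM per kb) exceeded Xrcc5 (14.8 CPM per kb) and Fanca (3.70 CPM per kb) exceeded Fancd2 (3.04 CPM per kb). By that length Lig1 (24.6 CPM per kb) came next to Parp1 in young Tregs, and in aged Tregs Lig4 was lowest (1.57 CPM per kb), below Brca2 (1.73 CPM per kb) and Xrcc2 (1.87 CPM per kb).

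**Figure D1:**
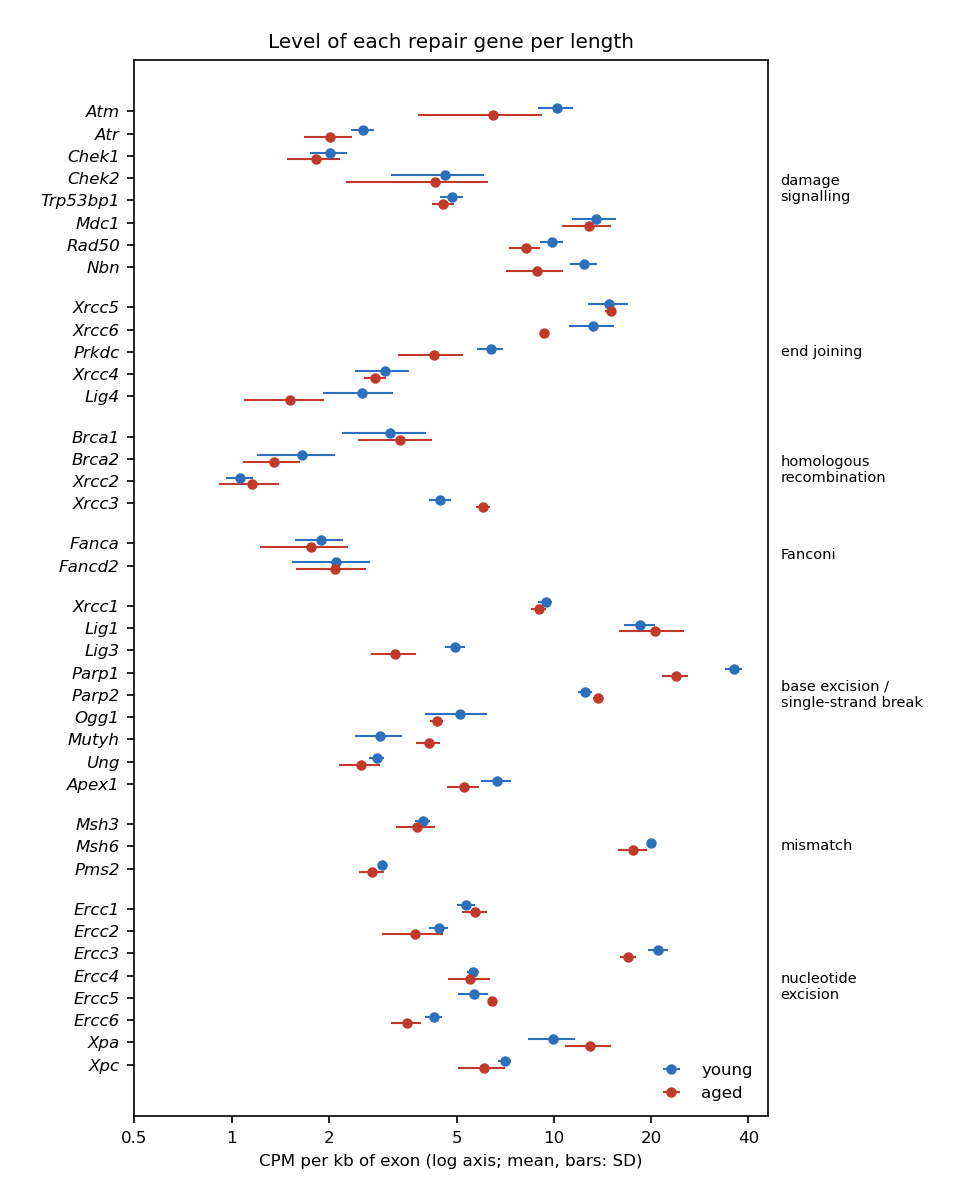
Level of the 39 repair genes in CPM per kb of exon on a log axis, with the mean and SD of 4 young (blue) and 3 aged (red) libraries, grouped by pathway. Parp1 stands highest in both ages and Xrcc2 lowest, at 1.07 CPM per kb in young Tregs.

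Compared with young Tregs, aged Tregs held less transcript of 5 repair genes and more of 1. Parp1, Lig3, Prkdc, Xrcc6 and Ercc3 were lower and Xrcc3 was higher. A gene was called where its false discovery rate (FDR), the Benjamini-Hochberg adjusted p of the quasi-likelihood test of edgeR over 13904 genes, was under 0.05. Changes are given as log2FC, the log2 of the level in aged over that in young Tregs, with its standard error (SE). These 6 genes are 15.4% of the set, against 16.7% of all genes tested, a share near the background. By direction, 12.8% of the set was called lower against 6.94% of all genes, and 2.56% was called higher against 9.8% of all genes. A further 7 genes, 13 in all, had an unadjusted p under 0.05, which is 33.3% of the set against 32.7% of all genes. The log2FC was negative in 29 of the 39 genes (74.4%, against 48% of all genes), with a median of -0.11 against 0.02 over all genes and -0.02 over the 9045 genes tested within the same range of mean level. No library of one age reached the range of the other in 2 genes that were higher and 10 that were lower in aged Tregs. Among all genes 15.5% and 14.4% showed such higher and lower separation, and 29.9% showed either. These shares are a description of the set, and no test was made over it.

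**Figure D2:**
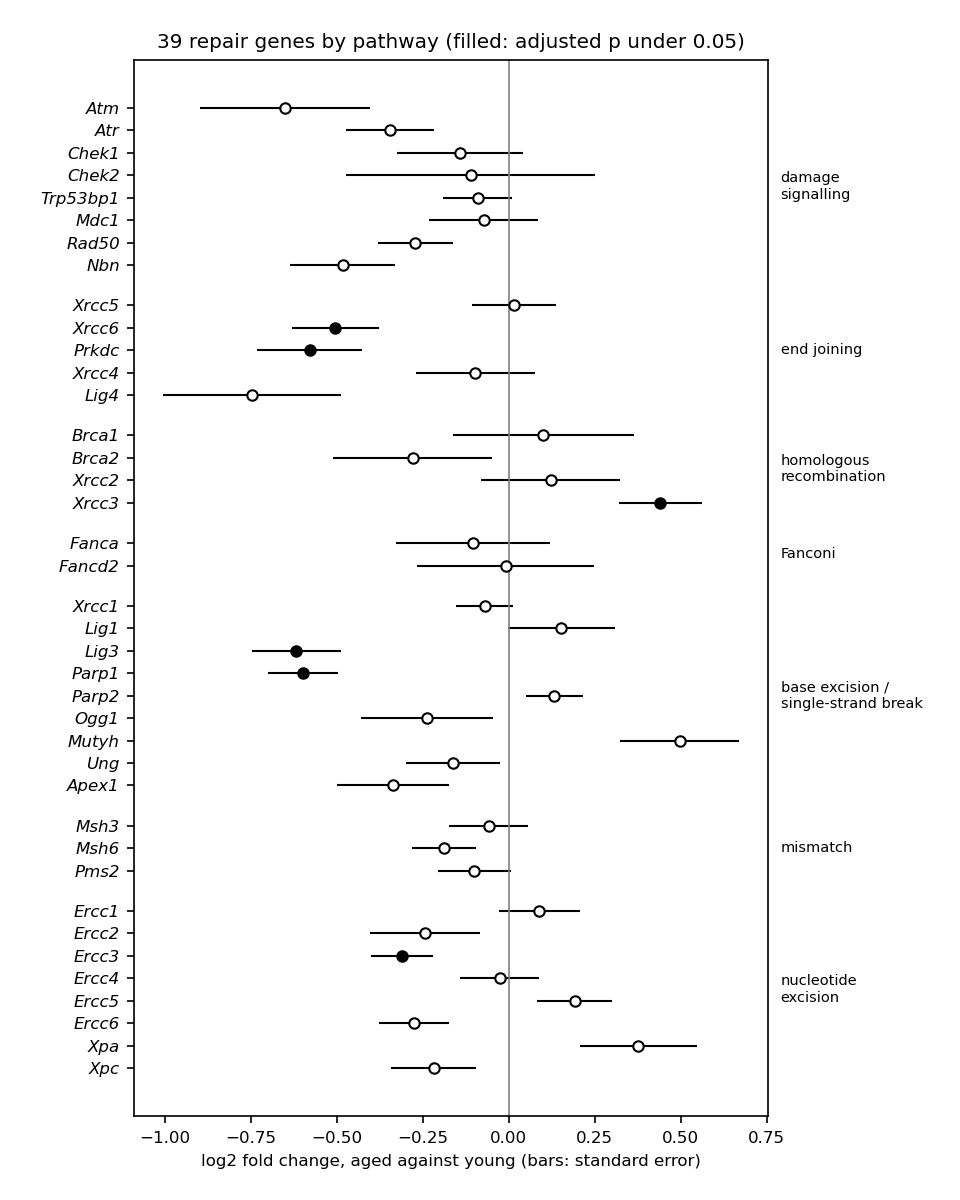
log2FC of aged against young Tregs for the 39 repair genes by pathway, with the standard error as bars and filled points for an FDR under 0.05. The 5 filled points left of 0 are Xrcc6, Prkdc, Lig3, Parp1 and Ercc3, the filled point to the right is Xrcc3, and the 8 damage signalling genes all lie left of 0.

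Among the genes that act on nicks and damaged bases, Parp1 and Lig3 were lower in aged Tregs, and their partners Parp2 and Xrcc1 were not called. Parp1 (ENSMUSG00000026496, chromosome 1 from 180568924 to 180601254 on GRCm38) encodes the enzyme that marks strand breaks with poly(ADP-ribose). Aged replicates 1 to 3 held 138, 114 and 127 CPM, and young replicates 1 to 4 held 194, 187, 178 and 205 CPM. All aged libraries were thus below all young ones. Its log2FC was -0.60 (SE 0.102, edgeR FDR 0.00708), and the call held whichever of the 7 libraries was dropped, with log2FC values from -0.67 to -0.53. Parp2, which makes the same polymer at fewer sites, was at 50.4, 50.5 and 47.7 CPM in the aged and 43.2, 43.9, 45.6 and 48.1 CPM in the young libraries. Its log2FC of 0.13 (SE 0.0825) was not called (edgeR FDR 0.303).

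Lig3 (ENSMUSG00000020697, chromosome 11 from 82781108 to 82804274) encodes the ligase that seals nicks in the nucleus together with the scaffold protein of Xrcc1, and that works alone in mitochondria. It was at 27.5, 20.4 and 22.3 CPM in the aged and at 36.4, 35.6, 39.01 and 32.8 CPM in the young libraries. The ranges did not meet, and the log2FC was -0.62 (SE 0.13, edgeR FDR 0.0162). Without aged replicate 3 or young replicate 3 it was not called, with an FDR of up to 0.06 over the 7 fits. Of the exon length of Lig3 25.1% overlaps Rffl on the opposite strand, where reads were assigned to neither gene, and Rffl itself had a log2FC of 0.01. Xrcc1 was at 49.4 to 54.7 CPM in aged and 52.0 to 58.4 CPM in young Tregs (log2FC -0.07, SE 0.083, edgeR FDR 0.604). Lig1, the ligase of replicating DNA, was at 111, 77.5 and 74.8 CPM in the aged and 70.4 to 90.0 CPM in the young libraries, so that aged replicate 1 stood above all others.

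The 3 glycosylase genes of the set (Mutyh, Ogg1 and Ung) were not called by edgeR. Mutyh, which removes adenine placed opposite oxidised guanine, was at 9.61, 11.1 and 11.3 CPM in the aged and 8.21, 6.66, 6.397 and 8.96 CPM in the young libraries. The aged values lay above the young ones, with a log2FC of 0.50 (SE 0.173, edgeR FDR 0.0851), and DESeq2 called it (FDR 0.0433), in a range of 0.0433 to 0.215 over all settings. Ogg1, which removes oxidised guanine itself, was at 9.17 to 9.97 CPM in aged and 8.37 to 14.3 CPM in young Tregs. Ung, which removes uracil, was at 11.7 to 15.7 CPM and 14.8 to 16.6 CPM. Apex1, the endonuclease at abasic sites, was at 8.213, 6.55 and 7.67 CPM in the aged and 8.215, 9.74, 10.7 and 9.17 CPM in the young libraries, so that the ages all but touched without crossing (log2FC -0.34, edgeR FDR 0.191). With 61.7% of its exon length shared with a gene on the opposite strand, the Apex1 level is understated.

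In end joining, the genes of the smaller Ku subunit and of the DNA-dependent protein kinase were lower in aged Tregs and the gene of the larger Ku subunit was not called. Xrcc6 (ENSMUSG00000022471, chromosome 15 from 81987835 to 82040085) encodes the smaller subunit of the ring that clasps a broken end. It was at 42.2, 41.1 and 41.8 CPM in the aged and at 51.6, 56.6, 72.8 and 55.5 CPM in the young libraries. The aged values lay close together and below every young value (log2FC -0.50, SE 0.126, edgeR FDR 0.0294). The call was lost without aged replicate 2, aged replicate 3 or young replicate 4, with an FDR of up to 0.085. Of its exon length 7.69% overlaps Desi1 on the opposite strand, which had a log2FC of -0.36 (edgeR FDR 0.0517). Xrcc5, the larger subunit, was at 39.9, 37.0 and 38.1 CPM in the aged and 34.0, 45.5, 37.3 and 34.8 CPM in the young libraries, and the groups overlapped (log2FC 0.02, SE 0.121, edgeR FDR 0.945). The sign of the Xrcc5 value changed in 7 of 18 other settings.

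Prkdc (ENSMUSG00000022672, chromosome 16 from 15637866 to 15842235), the catalytic subunit of the kinase that Ku recruits, was at 70.2, 51.9 and 46.0 CPM in the aged and 89.5, 72.4, 88.8 and 84.4 CPM in the young libraries. Aged replicate 1 came within the reach of young replicate 2, and no value crossed (log2FC -0.58, SE 0.154, edgeR FDR 0.0367). With one library dropped at a time the call held in 2 of 7 fits, those without aged replicate 1 or young replicate 2, and its FDR in the others reached 0.117 (without aged replicate 2, aged replicate 3, young replicate 1, young replicate 3 or young replicate 4). Lig4, the ligase of this pathway, was at 8.56, 9.67 and 5.43 CPM in the aged and 16.1, 10.4, 15.9 and 10.5 CPM in the young libraries. With 58 to 202 counts a library, its log2FC of -0.74 (SE 0.259) had an edgeR FDR of 0.0842 and was called by DESeq2 (0.0141), in a range of 0.0141 to 0.225 over all settings. Xrcc4, the partner of that ligase, was at 10.8 to 12.6 CPM in aged and 10.5 to 16.1 CPM in young Tregs (log2FC -0.10, edgeR FDR 0.743).

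**Figure D3:**
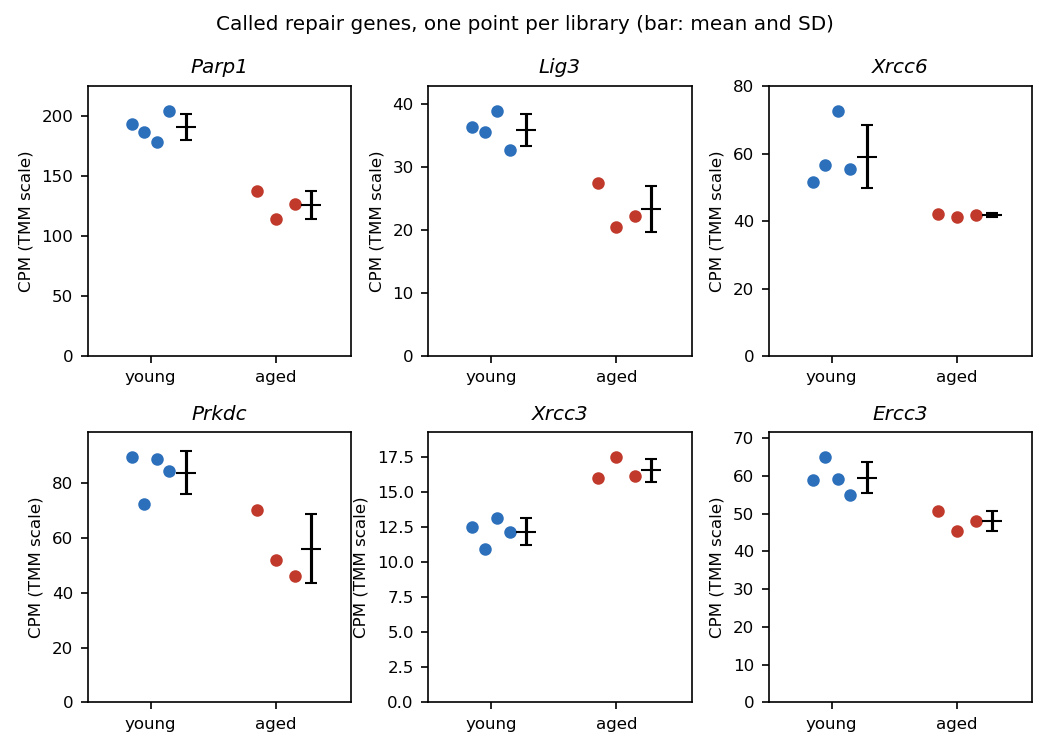
CPM (TMM scale) of the 6 called repair genes, with one point per library for 4 young (blue) and 3 aged (red) mice and the mean and SD beside them. The aged points of Parp1 lie between 114 and 138 CPM against 178 to 205 CPM in young Tregs, and Xrcc3 is the gene whose aged points lie higher.

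The separate course of partner genes was then read within each library as a ratio of CPM per kb, which does not depend on the library's scaling. These 4 pairs were chosen after the values of the genes were seen. The ratio of Parp1 to Parp2 was 1.87, 1.55 and 1.82 in the aged and 3.08, 2.92, 2.68 and 2.92 in the young libraries, a difference of -0.73 on the log2 scale with a range of -0.79 to -0.65 when single libraries were dropped. The ratio of Xrcc6 to Xrcc5 was 0.603, 0.635 and 0.627 in the aged and 0.866, 0.71, 1.11 and 0.911 in the young libraries, a difference of -0.52 (-0.62 to -0.41). That of Lig3 to Xrcc1 was 0.446, 0.311 and 0.326 against 0.529, 0.53, 0.6 and 0.449, a difference of -0.56 (-0.72 to -0.46), and aged replicate 1 lay just below young replicate 4. In these 3 pairs the ages did not overlap. Nor did they for Parp1, Xrcc6 and Lig3 taken alone, so the ratios are no separate support. The ratio of Prkdc to Xrcc5 did overlap, since aged replicate 1 (0.341) exceeded young replicate 2 (0.308). With 3 against 4 libraries a two-sided exact permutation test cannot give a p below 0.0571, so that no ratio could pass 0.05.

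**Figure D4:**
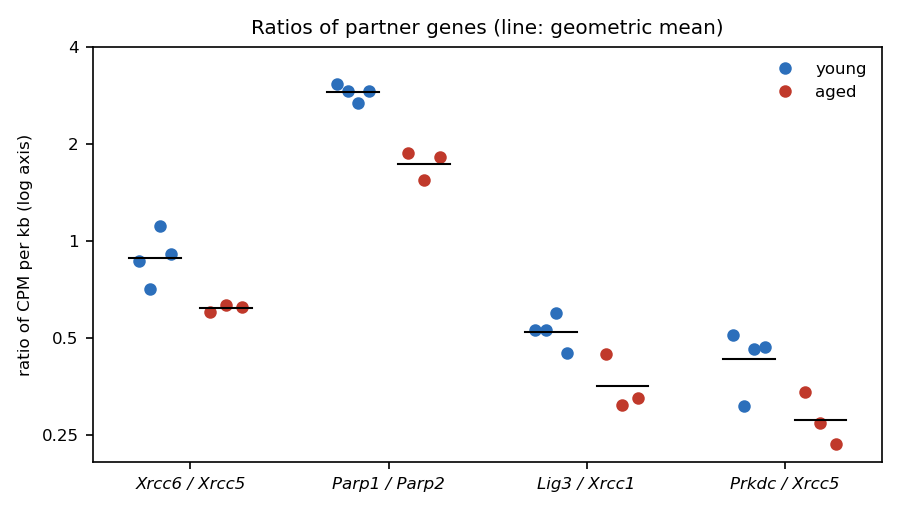
Ratio of CPM per kb of 4 pairs of partner genes on a log axis, with one point per library (blue, 4 young; red, 3 aged) and the geometric mean as a line. The aged ratios of Parp1 to Parp2 lie between 1.55 and 1.87, below the young ones from 2.68, and the ages overlap for Prkdc to Xrcc5.

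In homologous recombination, Xrcc3 was higher in aged Tregs, and Brca1, Brca2 and Xrcc2 were not called by edgeR. Xrcc3 (ENSMUSG00000021287, chromosome 12 from 111803192 to 111813873) encodes a protein that helps to load the recombinase on DNA. It was at 16.0, 17.5 and 16.2 CPM in the aged and 12.5, 10.9, 13.2 and 12.2 CPM in the young libraries. All aged values lay above all young ones (log2FC 0.44, SE 0.121, edgeR FDR 0.0406). With one library dropped at a time the call held without aged replicate 1 and was lost without aged replicate 2, aged replicate 3 or any young library (FDR up to 0.101), and it was lost once trends with GC content and length were taken out (log2FC 0.39, FDR 0.0604), with FDR values over all settings from 0.0134 to 0.204. Xrcc2, of the same protein family, was at 4.58 to 6.95 CPM in aged and 4.87 to 6.002 CPM in young Tregs. Brca1 was at 36.1, 27.6 and 21.5 CPM in the aged and 25.2, 16.4, 34.6 and 29.9 CPM in the young libraries, a spread within each age that exceeded the difference of 0.10 on the log2 scale (SE 0.263). Brca2 was at 15.3 to 22.6 CPM and 15.6 to 30.5 CPM (log2FC -0.28, SE 0.231).

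Of the 6 called genes, 4 have a promoter window in the RefSeq table (GRCm38.p6), and the 250 bases before the RefSeq start site were searched on both strands for E2F sites (TTTCGCGC, TTTGGCGC, TTTCCCGC or TTTGGCGG), the cell cycle homology region (TTTGAA or TTCGAA) and the CCAAT box. Matches stood in 2 windows, which are shown because they belong to the Ku gene that was lower and to the single gene that was higher, with the matches in capitals. The window of Xrcc6 holds 1 E2F match, on the minus strand, shown with 11 bases on each side at chr15:82016312-82016341 (plus strand). Its RefSeq start lies inside the gene as GENCODE gives it, since other transcripts of Xrcc6 start farther upstream, and the window lies within an exon of one of these and partly in exons of Desi1 on the opposite strand. The window of Xrcc3 lies at chr12:111813880-111814129 on the minus strand and holds 6 CCAAT boxes over both strands.
Xrcc6: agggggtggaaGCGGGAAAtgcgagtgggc
Xrcc3: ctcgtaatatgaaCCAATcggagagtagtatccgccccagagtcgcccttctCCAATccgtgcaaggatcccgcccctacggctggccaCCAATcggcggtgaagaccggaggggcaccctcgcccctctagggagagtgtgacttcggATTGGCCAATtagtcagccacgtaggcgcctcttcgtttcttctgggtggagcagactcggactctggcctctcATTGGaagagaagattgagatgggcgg
Such an E2F match stands in 1.96% of 32851 windows of this length and in 5 of the 32 repair genes with a window (Brca2, Chek2, Mdc1, Msh3 and Xrcc6), and the CCAAT box in 33.8% of windows and in 17 of the 32. The cell cycle homology region stands in 17.1% of windows and in 3 of the 32 genes. The windows of Parp1 and Lig3 held none of these letters. No 2 of the called genes shared a motif, and a match is no evidence of binding.

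Of the Fanconi anaemia genes, Fancd2, whose product is ubiquitinated at crosslinks, was at 20.2, 17.5 and 12.3 CPM in the aged and 17.5, 10.4, 21.2 and 18.0 CPM in the young libraries. The ages overlapped throughout (log2FC -0.01, SE 0.258, edgeR FDR 0.987), and its sign changed in 10 of 18 other settings. Fanca, of the core complex that acts on it, was at 11.2 to 20.5 CPM and 12.96 to 19.6 CPM (log2FC -0.10, SE 0.224). Neither gene had an unadjusted p under 0.05, and neither was called by edgeR, DESeq2, limma voom or limma-trend.

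The young libraries that were lowest and highest in the cell cycle markers were also the lowest and highest in a few repair genes. The mean log2 CPM of the 20 markers was 5.95 in young replicate 2 and 6.60 in young replicate 3, its lowest and highest values among the young libraries, and 6.55 in aged replicate 1, the highest of the aged. Young replicate 2 was the lowest and young replicate 3 the highest young library in Brca1, Brca2, Xrcc3, Fanca, Fancd2 and Lig1, that is, in 6 of the 39 repair genes (15.4%), in 8 of the 20 markers (40%) and in 7.72% of all genes tested. In these genes other than Xrcc3, where it was the lowest, aged replicate 1 was also the highest of the aged, an order that 3.52% of all genes tested showed. The order of the libraries between these extremes was not the same in all of these genes. This order was noticed in the values and is a description of 7 libraries. Both young libraries are the extremes of the mean of the same 20 markers, so the 40% is no separate observation. In the fit with the marker mean as a covariate, 5 of the 6 calls held, and Ercc3 had an FDR of 0.0584. Of the genes from the longer list named further on, Faap100 was not called in that fit (FDR 0.0565), while the damage signalling list as a whole had 2 higher genes in place of 1 and the homologous recombination list 1 lower gene in place of 0.

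**Figure D5:**
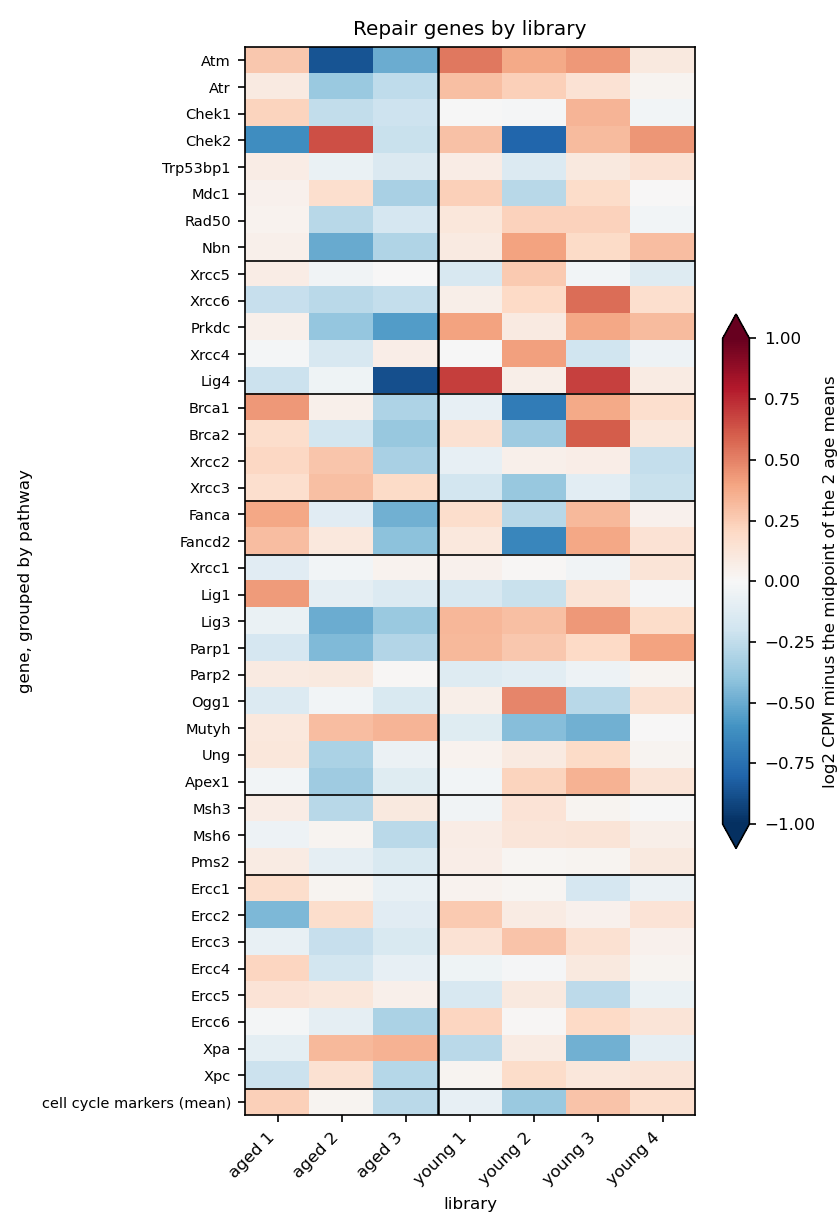
log2 CPM of the 39 repair genes in each library, less the midpoint of the aged and young means, by pathway, with the mean of 20 cell cycle markers in the bottom row (red higher, blue lower). Brca1, Fanca and Fancd2 are pale or blue in young replicate 2 like the marker row, and Parp1, Lig3 and Xrcc6 change at the line between the ages.

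None of the 8 damage signalling genes of the set was called by edgeR. All 8 had a negative log2FC, from -0.65 to -0.07, and 4 had an unadjusted p under 0.05 (32.7% of all genes did). DESeq2 called 3 of the 8 lower (Atm, Atr and Nbn), where it called 13.1% of all genes lower against 6.94% for edgeR, and limma voom and limma-trend called 0. Nbn, which brings the break-sensing complex to damaged chromatin, was at 27.4, 18.6 and 21.4 CPM in the aged and 28.1, 34.9, 30.1 and 32.6 CPM in the young libraries. The ages did not overlap, with aged replicate 1 just under young replicate 1 (log2FC -0.48, SE 0.152, edgeR FDR 0.063). Rad50, of the same complex, was at 39.6 to 49.2 CPM and 47.0 to 56.4 CPM. Atm, the kinase activated by that complex, was at 98.3, 44.8 and 57.8 CPM in the aged and 118, 106, 110 and 87.3 CPM in the young libraries, and is given in full because aged replicate 1 lay in the young range (chosen after its values were seen). Its log2FC was -0.65 (SE 0.246, edgeR FDR 0.107).

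These edgeR results depended on aged replicate 1. Without it, edgeR called Atm (log2FC -1.04, FDR 0.00568), Atr (-0.49, FDR 0.018), Nbn (-0.65, FDR 0.0152) and Rad50 (-0.37, FDR 0.0495), and 9 of the 39 repair genes were lower in place of 5, while the share of all genes called lower was 10.2% in place of 6.94%. Nbn was called with all libraries by DESeq2 and with GC content and length trends taken out. In the range over all settings the FDR of Atm reached 0.282, that of Atr 0.251, that of Nbn 0.239 and that of Rad50 0.281. That library held 10.7% mitochondrial counts against 5.08% and 5.54% in the other aged libraries, 1.27% haemoglobin counts against 13.1% and 7.60% (1.24% to 10.4% in young Tregs), and a summed level of 8 neutrophil markers of 5244 CPM against 1869 and 654 CPM, with 304 to 977 CPM in young Tregs and 2 of the 8 markers called higher. The part of these in the values was not tested. Atr, the kinase of stalled forks, was at 41.3 to 56.7 CPM and 54.5 to 65.8 CPM. Its effector Chek1 was at 7.45 to 10.3 CPM and 8.67 to 11.2 CPM, and Chek2, the effector of Atm, ranged from 8.12 to 19.5 CPM within the aged and from 7.22 to 17.0 CPM within the young libraries. The scaffold genes were close between the ages. Mdc1 was at 99.3, 108 and 76.8 CPM in the aged and 113, 79.6, 109 and 96.4 CPM in the young libraries (log2FC -0.07, SE 0.158), and Trp53bp1 was at 60.0 to 69.7 CPM and 60.0 to 73.1 CPM (log2FC -0.09, SE 0.1).

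Among the mismatch repair genes none was called by edgeR, DESeq2, limma voom or limma-trend, and the unadjusted p was under 0.05 for 0 of the 3 genes in edgeR and for 1 in DESeq2. Msh6, which reads single mismatches, was at 78.5, 83.1 and 67.6 CPM in the aged and 85.8, 88.4, 89.2 and 84.7 CPM in the young libraries. The ages did not overlap, with a small difference (log2FC -0.19, SE 0.0938, edgeR FDR 0.203). Msh3, which reads larger loops, was at 35.5 to 46.0 CPM and 42.0 to 47.3 CPM, and Pms2, of the nuclease that follows, at 20.6 to 24.3 CPM and 23.2 to 24.4 CPM.

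In nucleotide excision repair, Ercc3 was lower in aged Tregs and the other 7 genes of the set were not called by edgeR. Ercc3 (ENSMUSG00000024382, chromosome 18 from 32240300 to 32270151) encodes a helicase of the general transcription factor that opens DNA around a lesion. It was at 50.8, 45.4 and 48.0 CPM in the aged and 58.9, 65.0, 59.2 and 55.0 CPM in the young libraries. The ages did not overlap, and the log2FC of -0.31 (SE 0.0898) lay just under the threshold (edgeR FDR 0.0488). It was called in 4 of 18 other settings, which were DESeq2, RLE normalization, removed GC content and gene length trends, and without aged replicate 1, and its FDR reached 0.159. Ercc2, the other helicase of that factor, was at 12.2, 18.8 and 15.4 CPM in the aged and 17.2 to 20.01 CPM in the young libraries, although 42.7% of its exon length overlaps other genes. Ercc6, which acts where transcription stalls, was at 48.8, 46.3 and 39.7 CPM in the aged and 57.2, 49.8, 56.6 and 53.9 CPM in the young libraries, with no overlap (log2FC -0.27, SE 0.102, edgeR FDR 0.1), and DESeq2 called it (FDR 0.0418), in a range of 0.0418 to 0.284 over all settings. The lesion sensors went in different directions without a call, with Xpc at 29.3 to 39.6 CPM in aged and 36.3 to 40.4 CPM in young Tregs (log2FC -0.22), and Xpa at 19.8 to 26.9 CPM and 15.2 to 22.4 CPM (log2FC 0.38, edgeR FDR 0.164). The nuclease genes Ercc1, Ercc4 and Ercc5 had log2FC values of 0.09, -0.03 and 0.19.

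A longer list of the same 7 pathways adds 139 genes, of which 138 were tested. In aged Tregs 5 of these were called higher and 6 lower by edgeR (7.97%, against 16.7% of all genes tested), with a median log2FC of 0.01. In damage signalling 1 of 29 was higher and 2 were lower. The log2FC was negative in 15 of these 29 and positive in 14, unlike in the 8 genes of the set, which were all negative. Rnf8, a ubiquitin ligase at breaks, rose to 7.56 ± 1.84 CPM (SD, n = 3) from a young level of 2.92 ± 0.317 CPM (SD, n = 4), with a log2FC of 1.37 (edgeR FDR 0.0058). Herc2, a ubiquitin ligase that works with it, fell with a log2FC of -0.61 (FDR 0.0336), and Tlk1, a chromatin assembly kinase, with one of -0.59 (FDR 0.0207). In end joining Dntt, which adds random nucleotides at antigen receptor joints, was the 1 gene of 13 called, from 5.96 ± 2.18 CPM to 2.08 ± 0.403 CPM (log2FC -1.52, FDR 0.0163). Rag1 and Rag2, recombinase genes of developing lymphocytes, were looked up after these values were seen. Rag1 was at 0.0874, 7.35 and 0.749 CPM in the aged and 15.4 to 77.0 CPM in the young libraries (edgeR FDR 0.0376). Rag2 was at 0, 0.604 and 0 CPM against 0.932 to 4.03 CPM and was not called (edgeR FDR 0.0739). The part of these genes in the Dntt value was not tested. In homologous recombination edgeR called 0 of 33 genes, with 3 at an unadjusted p under 0.05, DESeq2 called 2 and the limma fits 0.

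The Fanconi list of 17 further genes held Fancf, which was higher (log2FC 0.76, edgeR FDR 0.036), and Faap100, which was lower (-0.66, FDR 0.0421), both parts of the core complex. In base excision repair 2 of 21 were higher, both glycosylase genes for oxidised bases, and 1 was lower. Neil1 rose by 0.46 on the log2 scale (FDR 0.025), and Neil2, which was below the level set for naming and is added for completeness, by 1.75 (FDR 0.00714). Parg, which removes the polymer made by Parp1, fell from 63.5 ± 2.05 CPM to 48.4 ± 2.83 CPM (log2FC -0.39, FDR 0.015). In nucleotide excision repair Uvssa, which acts with Ercc6 at stalled polymerase, was the 1 gene of 20 called and was higher (log2FC 0.53, FDR 0.0383). With one library dropped at a time the call of Rnf8 held in every fit, those of Dntt in 6 of 7, of Tlk1 and Parg in 5, of Neil1 in 3, of Herc2 and Uvssa in 2, of Faap100 in 1 and of Fancf in 0 (FDR from 0.0504 to 0.0952).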

How the data were processed

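RNA-sequencing of splenic CD4+CD25+ cells of 3 aged and 4 young mice was used. The authors deposited raw read counts per Ensembl gene for each library, in the layout of HTSeq-count, named as union mode and as unstranded. Genes that overlap on either strand therefore lose shared reads. The submitters' processing notes name mm10, and the aligner is not given in the sources used here. The authors also deposited signal values, the counts divided by one constant per library (checked on the files), from which symbols were taken, beside their own comparison (mean, fold change, p-values), which was not used. Reads assigned to no single gene (13.1% to 20.9%) were left out. Coordinates, exon lengths and overlaps come from GENCODE M21 (GRCm38), and no other gene matched a repair gene over 200 bases at 95% identity except where genes overlap or, for Pms2, adjoin.

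The 13904 genes that passed filterByExpr by group were fitted together by the quasi-likelihood method of edgeR 4.0.16 (R 4.3.3) with TMM scaling and no covariate, and the FDR is the Benjamini-Hochberg adjusted p, called under 0.05. CPM are on the TMM scale, with the mean ± SD, and the SE is the size of log2FC divided by the square root of F. Gene counts numbered 10734234 to 13649310 a library, where 3 counts are 0.21 to 0.302 CPM on that scale, which covers counting error only. Tests were checked on simulated data. The alternatives were DESeq2 1.42.0, limma 3.58.1 (voom, and trend with a prior count of 2), RLE or library size scaling, no filter or a minimum of 10 counts throughout, a fit without mitochondrial, haemoglobin and immunoglobulin genes, the replicate number as a block, GC content and length trends removed, the cell cycle marker mean as a covariate, and each library left out.

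The repair genes and lists were chosen with earlier results of these data known. Values per library are given for each called gene of the set, each whose ages did not overlap and the most abundant per kilobase of each pathway. From the longer list, log2FC and FDR, and for some the mean and SD, are given. These are for up to 3 called genes a pathway whose mean log2 CPM was at least 2. A few items that fall under these rules are not reported here.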

Additional observations from a re-analysis of the deposited data

Results flagged for a closer look

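Chek1 was at 11.2 CPM in young replicate 3 and at 8.67 to 8.83 CPM in the other young libraries, a gap that passed Dixon's 95% criterion. Of 39 repair genes this was the 1 with such a library, and about 1 in 20 groups is expected to pass by chance. The mean log2 CPM of the cell cycle markers was also highest among the young in that library (6.60), and its part in the Chek1 value was not tested.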

How the results depend on the processing

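Of the 39 repair genes, 5 were called lower and 1 higher. The counts were 10 and 2 with DESeq2, which called 27.4% of all genes in place of 16.7% and 1822 of them lower in place of 965. The 1 higher gene became 0 with trends of GC content and length taken out, with library size only and with no filter on low counts. The other genes of the repair lists called higher numbered 5 and became 8 with DESeq2, 2 with library size only and 3 with no filter, and the 6 called lower became 13 with DESeq2. The median log2FC of the repair genes, -0.11, was -0.20 with library size only, where that of all genes moved from 0.02 to -0.05. With one library dropped at a time, 1 to 9 repair genes were called lower and 0 to 1 higher, with the median between -0.17 and -0.08, the other repair genes numbered 0 to 16 lower and 2 to 4 higher, and all genes 448 to 1455 lower and 783 to 1603 higher. Fewest repair genes were called without aged replicate 3 and most without aged replicate 1. The cause of these moves was not tested.

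With the replicate number as a block, edgeR called 0 repair genes (10 with an unadjusted p under 0.05) and 0 of the others on the lists (14 with an unadjusted p under 0.05), and 90 of all genes lower and 202 higher. Same-numbered libraries did not deviate together (correlations -0.091, -0.292 and -0.138), and differently numbered ones had correlations from -0.241 to 0.227. With so few pairs, taken as deviations from small group means, this cannot tell whether the numbers mark a pairing or a batch. Under the block log2FC turned to -0.0131 in Xrcc5 and 0.0584 in Fancd2.

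Some small values near 0 changed sign, none of them called. With the trends taken out, log2FC was 0.0502 in Trp53bp1, -0.0566 in Xrcc5, 0.0437 in Fancd2, 0.0203 in Msh3 and 0.027 in Ercc4. Xrcc5 was at -0.0539 with library size only and at -0.00764 with no filter. Fancd2 was at 0.0051 with a minimum of 10 counts throughout, 0.00605 with the cell cycle covariate, 0.0236 with limma voom and 0.00695 with limma-trend. With one library dropped at a time, Brca1 ran from -0.11 to 0.27, Chek2 from -0.55 to 0.13, Ercc4 from -0.16 to 0.0541, Fanca from -0.37 to 0.0815, Fancd2 from -0.18 to 0.17, Lig1 from -0.0547 to 0.26, Mdc1 from -0.18 to 0.0598, Msh3 from -0.12 to 0.0529, Xrcc4 from -0.17 to 0.0444 and Xrcc5 from -0.0283 to 0.12. With the longest transcript as gene length, the young levels per kb were 49.3 for Parp1, 5.04 for Xrcc3 and 3.04 for Fancd2.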
